A study of Homo sapiens with 12 samples.

Results

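The genes described here were the enzymes of cholesterol synthesis and the proteins that control it, followed in KKU-213A, a human cell line from a bile duct cancer of mixed papillary and non-papillary type. They were taken by symbol from a list of 28: 20 enzymes of the mevalonate and sterol pathway, including the branch enzyme GGPS1, and 8 genes of sterol control. Of these, 18 were listed in at least 1 of the 3 tables the authors deposited, which together hold 5308 genes. Of the 18, 16 were listed for lactic acidosis, 8 for lactosis and 11 for acidosis. HMGCS1, PMVK, MVD, FDPS, SQLE, LBR, INSIG2, SCAP, MBTPS1 and MBTPS2 were in none of the tables and were not analysed here.

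RNA with a poly(A) tail was sequenced from 12 libraries in 4 groups of 3, each treated group set against the same 3 controls. Control cells were kept in low-glucose DMEM. Cells under lactic acidosis were adapted stepwise to a medium with 25 mM L-lactate and 25 mM of the buffer HEPES at pH 6.7. Lactosis was 25 mM lactate at pH 7.4, and acidosis was 25 mM HEPES at pH 6.5. All treated cells had at least 5 passages in their medium. For the controls no medium pH or passage number was found. Any difference in passage number between control and treated cells cannot be told apart from the treatment. The effects of acid and of HEPES cannot be told apart, and the 2 acid media also differed in pH. The labels do not state whether replicate libraries were grown as separate cultures. P values therefore cover only library-to-library spread, and that spread may be technical.

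Cholesterol is built from acetyl-CoA through mevalonate and isopentenyl diphosphate to farnesyl diphosphate. Squalene synthase commits this precursor to sterols, and a chain of reductases, demethylases and isomerases turns the first ring sterol, lanosterol, into cholesterol. The transcription factors SREBP, encoded by SREBF1 and SREBF2, are held in the endoplasmic reticulum by INSIG proteins when sterol is plentiful. When sterol is scarce they are carried to the Golgi by SCAP, cut by 2 proteases, and switch on these same enzyme genes together with INSIG1.

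A gene is listed in a table when the authors' posterior probability of equal expression was under 0.05, so listing is itself a test result, and the tests given here ran on genes already chosen by it. Levels are the authors' expression values per library, divided by gene length, and read depth is unknown. Differences given with a limma adjusted p are on the log2(value + 1) scale, which understates changes of genes at low levels. In control replicate 1 most values lay low: the divisor fitted to match the authors' group means was 0.848, against 1.073 and 1.099 in replicates 2 and 3. Below, "rescaled" means that every library was divided by its fitted divisor. The median coefficient of variation of the 18 genes over the controls then went from 15.1% to 7.62%. Over the 5048 listed genes with a control mean of at least 1, that median went from 17.997% to 11.430%. The coefficient rose for STARD4, from 14.5% to 23.2%, and for TM7SF2, from 6.40% to 15.2%. It also rose for SREBF1, GGPS1 and NSDHL, and it fell for the other listed sterol genes. Rescaling also lowered the log2 ratio of lactic acidosis to control by 0.10 over the listed genes, that of lactosis by 0.02 and that of acidosis by 0.0030. Lactic acidosis replicate 2 and lactosis replicate 2 carried muscle transcripts: the listed genes of a list of 7 summed to 29.03 and 48.09, against at most 1.19 in every other library of those groups and 1.52 in the controls. Of 7 biliary markers, KRT19 and SOX9 were listed. KRT19 stood at 3791 ± 869 in control cells and 2892 ± 258 under lactic acidosis, and SOX9 at 11.97 ± 5.47 and 34.1 ± 1.44 (SD, n = 3). Among markers of other cell types, 1 of 4 for leukocytes (CD68, 30.3 ± 2.69 to 46.1 ± 3.59) and 1 of 4 for hepatocytes (SERPINA1, 5.94 ± 1.38 to 10.00 ± 0.65) were listed under lactic acidosis. In acidosis 1 of 3 endothelial markers was listed (PECAM1, 0.30 ± 0.22 to 0.96 ± 0.29), and none of 5 fibroblast markers was listed in any table. The part of these markers in the results below was not tested. Without those libraries 11 sterol genes passed limma under lactic acidosis, against 13 with them, and 5 in lactosis, against 6. Of all listed genes 61.3% and 57.1% passed without them, in either direction.

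In control cells the 18 genes spanned a wide range. FDFT1, which encodes squalene synthase, stood highest at 307 ± 54.8 (SD, n = 3), followed by the sterol isomerase EBP at 237 ± 34.8 and the thiolase ACAT2 at 214 ± 29.9. FDFT1 lay wholly above ACAT2, and the range of EBP over the libraries overlapped both. The ranges of most neighbours in the order overlapped. ACAT2 lay wholly above DHCR7, IDI1 above NSDHL, SREBF1 above HSD17B7, STARD4 above GGPS1, GGPS1 above SC5D and SC5D above TM7SF2. The sterol desaturase SC5D, at 17.99 ± 4.21, and the sterol reductase TM7SF2, at 7.14 ± 0.46, were the lowest. The median of the 18 was 62.6, against 20.4 over the 5048 listed genes with a control mean of at least 1.

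Under lactic acidosis all 16 listed sterol genes were lower than in control cells. Among all genes listed there 41.1% were lower, and the median log2 fold change was 0.37, against −0.83 for the 16 in the authors' deposited table. Among the 16, 6 were at least 2-fold lower there, against 15.7% of all listed genes. These were INSIG1, STARD4, TM7SF2, MSMO1, FDFT1 and HSD17B7. The median over all listed genes that were lower was −0.80, close to that of the 16. By limma 13 of the 16 passed, all lower. Of all listed genes 86.1% passed in either direction and 30.8% passed as lower.

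**Figure D1:**
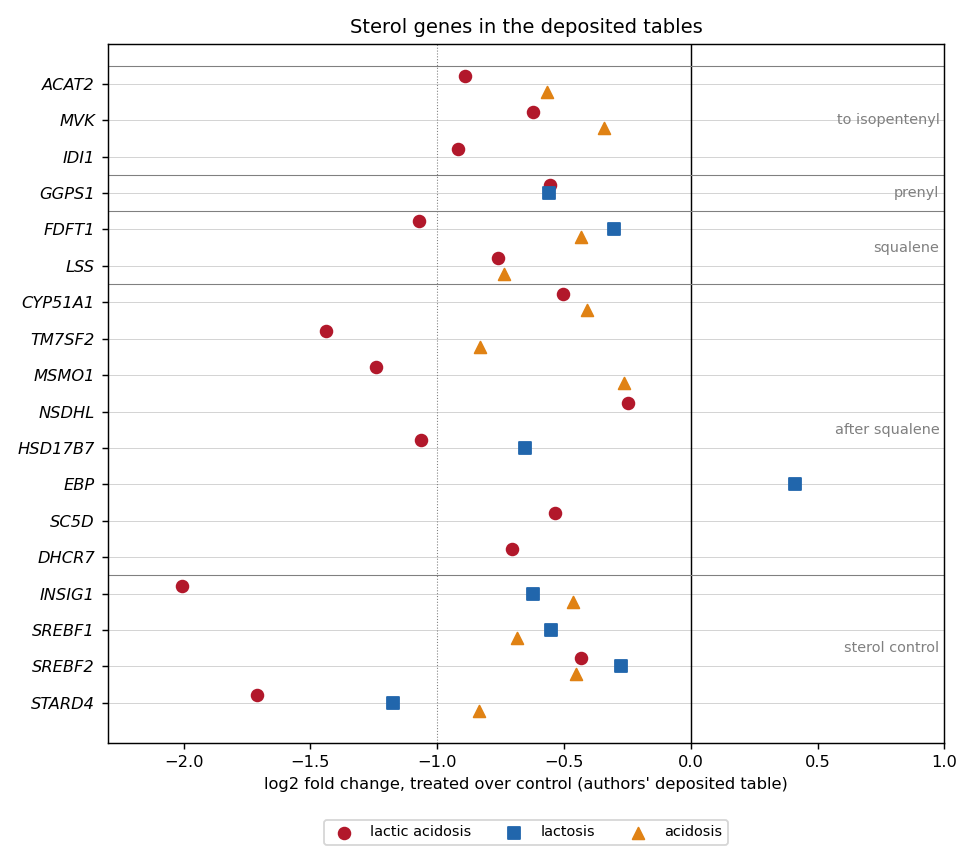
Log2 fold change, treated over control, from the authors' deposited tables for the 18 listed genes, ordered by pathway step; circles are lactic acidosis, squares lactosis and triangles acidosis, and the dotted line marks a 2-fold fall. All points except EBP in lactosis, at 0.41, lie left of 0, and INSIG1 under lactic acidosis lies lowest, at −2.01.

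The first steps build isopentenyl units. ACAT2, the thiolase that joins 2 acetyl-CoA, had levels of 181.14, 220.56 and 239.77 in the controls and 128.63, 122.94 and 120.47 under lactic acidosis. The groups did not overlap, and the limma difference was −0.77 ± 0.14 (SE), adjusted p = 0.00198. IDI1, the isomerase of isopentenyl diphosphate, went from 91.5 ± 19.8 to 51.8 ± 4.55 (SD, n = 3), a limma difference of −0.79 ± 0.18 with adjusted p = 0.00448. Mevalonate kinase, MVK, had 48.24, 71.11 and 67.35 in the controls and 42.72, 46.74 and 39.92 under lactic acidosis. Its groups were separated by little, since control replicate 1 was close to the highest treated library. The limma difference of MVK was −0.50 ± 0.17 with adjusted p = 0.0225, and the call was lost without control replicate 2, control replicate 3, lactic acidosis replicate 1 or lactic acidosis replicate 3, at adjusted p from 0.0514 to 0.0860. Reads counted for ACAT2 can come from neighbours: 66.6% of 75-base windows of ACAT2 also occur in SOD2-OT1, SOD2 or TCP1 on the opposite strand. MVK shares 4.72% of its exon bases with MMAB, but none of its 268 windows occurs in another gene. TCP1 itself was higher in the authors' deposited table, at 0.42, and MMAB lower, at −0.92.

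GGPS1 makes geranylgeranyl diphosphate, which is attached to proteins and does not lead to sterol. Its levels were 22.14, 24.03 and 24.73 in the controls and 17.93, 17.69 and 16.68 under lactic acidosis. All treated libraries lay below all controls, with a limma difference of −0.42 ± 0.12, adjusted p = 0.0140. Without lactic acidosis replicate 3 it was −0.39 with adjusted p = 0.0659. GGPS1 shares 37.3% of its exon bases with TBCE on the same strand, and TBCE was also listed lower, at −0.41 in the authors' deposited table, so the 2 genes are uncertain as separate results.

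Squalene synthase, FDFT1, fell from control levels of 244.32, 331.35 and 345.66 to 154.48, 161.36 and 152.89. The highest treated library lay well under the lowest control, and the limma difference was −0.95 ± 0.16, adjusted p = 0.00122. LSS, which closes the rings to form lanosterol, fell from 28.07, 36.53 and 39.33 to 21.99, 22.05 and 21.57. The 3 treated libraries of LSS were nearly equal and all lay below the controls, with a limma difference of −0.63 ± 0.15 and adjusted p = 0.00624.

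After lanosterol the genes moved by unequal amounts. TM7SF2, a reductase of the sterol ring at chromosome 11 from 65111845 to 65116384 (GRCh38), fell from 7.05, 7.64 and 6.74 to 2.36, 2.99 and 3.13. Every treated library was under the lowest control, and the limma difference was −1.09 ± 0.14, adjusted p = 0.000329. At this low level the size depends on the pseudocount, and it was −0.63 with 5 and −1.32 with 0.1. The complex that removes the paired methyl groups of the ring has 3 listed members. MSMO1, the oxidase that starts the removal, lies on chromosome 4 from 165327623 to 165343160 and went from 84.17, 102.80 and 103.72 to 44.67, 47.90 and 38.36. The ranges of MSMO1 were far apart, with a limma difference of −1.13 ± 0.15 and adjusted p = 0.000407. HSD17B7, the ketone reductase of the complex, went from 32.92, 44.68 and 42.14 to 20.88, 19.96 and 20.33. The treated libraries of HSD17B7 were all below the controls, with a limma difference of −0.92 ± 0.15 and adjusted p = 0.00102. NSDHL, the dehydrogenase between these 2 steps, stood at 63.0 ± 4.06 in control cells and 57.4 ± 2.24 under lactic acidosis (SD, n = 3). NSDHL did not pass, with a limma difference of −0.13 (95% interval −0.42 to 0.15), adjusted p = 0.331.

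Calls among the other late enzymes were less stable when a library was left out. The demethylase CYP51A1 had 88.45, 120.70 and 130.24 in the controls and 83.93, 91.49 and 78.31 under lactic acidosis. Control replicate 1 of CYP51A1 fell inside the treated range, and the limma difference of −0.40 ± 0.17 had adjusted p = 0.0489. Leaving out any 1 library except control replicate 1 took CYP51A1 over the threshold, to adjusted p from 0.0769 to 0.152. DHCR7, the last reductase of one route to cholesterol, went from 133 ± 34.2 to 87.0 ± 9.16 (SD, n = 3), a limma difference of −0.58 ± 0.20 with adjusted p = 0.0250. DHCR7 lost its call under the same 5 removals, at adjusted p from 0.0512 to 0.0969. SC5D stood at 17.99 ± 4.21 and 13.3 ± 1.39, with a limma difference of −0.39 (95% interval −0.81 to 0.03) and adjusted p = 0.0701. Of the windows of CYP51A1, 88.2% also occur in AC000120.2 or a CYP51A1 pseudogene, and 33.0% of those of HSD17B7 in HSD17B7P2 or another gene, so both are uncertain as results for 1 gene.

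Among the control genes INSIG1 and STARD4 had the largest falls of all the listed sterol genes under lactic acidosis. INSIG1, the retention protein of the SREBP pathway, lies on chromosome 7 from 155297776 to 155310235 (GRCh38). Its levels were 31.53, 36.11 and 39.52 in control cells and 9.01, 10.37 and 9.30 under lactic acidosis. Every control library was at least 3.04 times every treated library. The limma difference was −1.79 ± 0.14 with adjusted p = 4.69e-05. In the authors' deposited table the INSIG1 fold was 4.02 in favour of control, and 4.77% of listed genes fell further.

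STARD4, a protein that moves cholesterol between membranes, lies on chromosome 5 from 111496033 to 111512590. Its levels went from 35.01, 37.61 and 28.19 to 11.65, 12.35 and 10.22. The groups were apart by a factor of 2.28 between the nearest libraries, and the limma difference was −1.47 ± 0.15, adjusted p = 0.000143. SREBF2, which encodes the SREBP of sterol synthesis, had 71.75, 104.55 and 105.38 in the controls and 72.37, 76.35 and 74.07 under lactic acidosis. Control replicate 1 of SREBF2 was the lowest of the 6 libraries and the groups overlapped. The limma difference of SREBF2 was −0.31 (95% interval −0.70 to 0.07), adjusted p = 0.105. SREBF1 was not listed in the lactic acidosis table and was not analysed there.

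**Figure D2:**
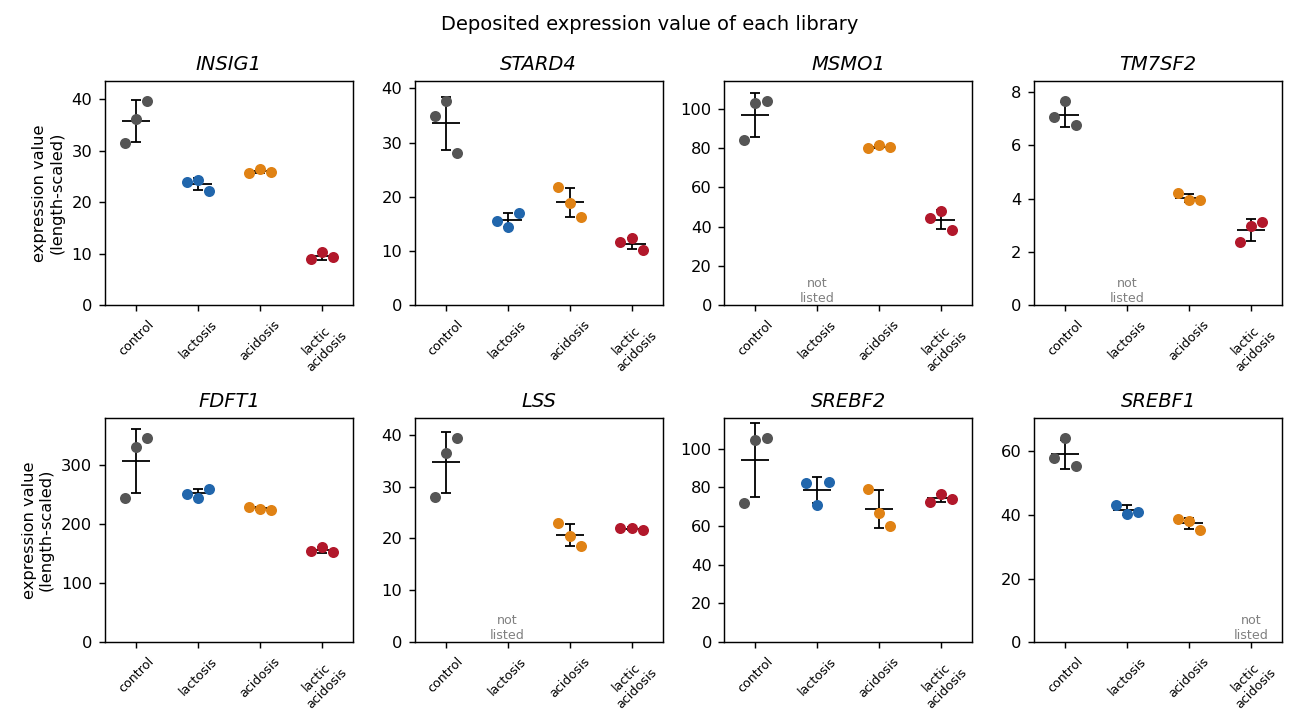
Expression value, divided by gene length, in each library of the 4 groups for 8 sterol genes; points are libraries, horizontal lines group means and error bars the SD over 3 libraries, and axes start at 0. The lactic acidosis libraries of INSIG1, between 9.01 and 10.37, lie apart from all other groups, while those of SREBF2 lie within the control range.

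Promoter sequences are shown for the 4 genes with the largest falls under lactic acidosis in the authors' deposited table. SREBF2 is shown as well, and was chosen after the search. Among the promoters found for the listed genes, only its own held the exact letters of the classic sterol response element, a site that SREBP binds. The windows are RefSeq promoters on GRCh38.p14, printed 5′ to 3′ on the gene's strand up to the first annotated start, at chr7:155297628-155297775 (plus strand) for INSIG1, chr5:111512591-111512785 (minus) for STARD4, chr11:65111622-65111844 (plus) for TM7SF2, chr4:165327419-165327622 (plus) for MSMO1 and chr22:41832855-41833078 (plus) for SREBF2. Capitals mark CCAAT, the letters bound by the factor NF-Y, or its reverse complement ATTGG, and in SREBF2 also the sterol response element.
INSIG1: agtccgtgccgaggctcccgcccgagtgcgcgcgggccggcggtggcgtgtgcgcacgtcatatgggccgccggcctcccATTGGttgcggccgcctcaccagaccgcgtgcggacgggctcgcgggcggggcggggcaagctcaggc
STARD4: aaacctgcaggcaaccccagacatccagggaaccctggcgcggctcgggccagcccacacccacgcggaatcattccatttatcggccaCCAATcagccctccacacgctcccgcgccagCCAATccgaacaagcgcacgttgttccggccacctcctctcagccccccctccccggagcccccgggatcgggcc
TM7SF2: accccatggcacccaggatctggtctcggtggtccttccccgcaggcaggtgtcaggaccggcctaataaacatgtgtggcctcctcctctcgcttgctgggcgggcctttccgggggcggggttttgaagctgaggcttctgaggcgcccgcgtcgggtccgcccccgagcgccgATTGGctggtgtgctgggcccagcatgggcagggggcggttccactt
MSMO1: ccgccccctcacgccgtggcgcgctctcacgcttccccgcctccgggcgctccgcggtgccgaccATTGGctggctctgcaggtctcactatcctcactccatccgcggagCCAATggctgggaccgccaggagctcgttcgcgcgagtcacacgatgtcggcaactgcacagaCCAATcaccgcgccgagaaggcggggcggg
SREBF2: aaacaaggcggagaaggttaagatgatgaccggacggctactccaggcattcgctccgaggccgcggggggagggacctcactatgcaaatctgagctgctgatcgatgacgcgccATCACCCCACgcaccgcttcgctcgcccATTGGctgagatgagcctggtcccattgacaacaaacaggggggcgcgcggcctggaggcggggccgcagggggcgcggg

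Promoter windows were found for 16 of the 18 listed genes, and only their 250 bases before the start of transcription were searched. ACAT2 and FDFT1 had no entry. The classic sterol response element (the longer capitals in SREBF2), its looser form TCACNCCAC, which lies within it, and CCAAT were searched on both strands. CCAAT was found for 14 of the 16 genes, or 87.5%, against 37.0% of the 27305 genes with a window. It was found for 13 of the 14 that were listed lower under lactic acidosis, or 92.9%. EBP, which was higher in lactosis, had it as well. The share over all listed genes was not counted, so a tie to being lower was not tested. The classic element and TCACNCCAC were each found only in SREBF2 among the 16, or 6.25%, against 0.0439% and 1.09% of the 27305 genes. These matches describe letters in the windows, and other forms of SREBP site were not searched.

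In lactosis, with lactate at pH 7.4, 8 sterol genes were listed, 7 lower and EBP higher. Of all listed genes there 40.7% were lower. The median of the 8 in the authors' deposited table was −0.56, against 0.35 over all listed genes. Over all listed genes that were lower it was −0.72, a larger fall than the −0.56 over the 7 lower sterol genes. STARD4 alone was at least 2-fold lower, against 12.8% of the table. By limma 5 fell and 1 rose, so 6 of 8 passed, against 77.7% of all listed genes in either direction and 31.2% as lower.

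STARD4 in lactosis had 15.64, 14.39 and 17.02. These levels lay between those of lactic acidosis and control without touching either, and the limma difference from control was −1.05 ± 0.15, adjusted p = 0.000958. INSIG1 had 24.00, 24.31 and 22.24, below the 31.53 of the lowest control. Its limma difference was −0.58 ± 0.14 with adjusted p = 0.00777. HSD17B7 had 25.90, 24.33 and 27.87, also below all controls, with a limma difference of −0.59 ± 0.15 and adjusted p = 0.0106. SREBF1, the SREBP gene better known for fatty acid synthesis, had 57.85, 64.15 and 55.36 in the controls and 43.20, 40.33 and 40.93 in lactosis. The SREBF1 groups did not overlap, and the limma difference was −0.50 ± 0.13, adjusted p = 0.0106.

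GGPS1 in lactosis had 15.76, 16.83 and 16.60, all below the controls, with a limma difference of −0.50 ± 0.13 and adjusted p = 0.00960. Without lactosis replicate 1 it was −0.47 with adjusted p = 0.0543. EBP, which shifts a double bond in the sterol ring, rose from 202.27, 238.31 and 271.87 to 318.45, 330.93 and 312.63. All lactosis libraries of EBP lay above all controls, and the limma difference was 0.44 ± 0.15, adjusted p = 0.0251. The EBP call was lost without control replicate 2 or any 1 lactosis library, at adjusted p from 0.0638 to 0.0808. FDFT1 in lactosis stood at 250.91, 244.93 and 260.16 and SREBF2 at 82.03, 70.78 and 82.76. Both overlapped the controls, and neither passed limma, at adjusted p = 0.139 and adjusted p = 0.219.

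In acidosis all 11 listed sterol genes were lower, against 38.9% of listed genes. Their median in the authors' deposited table was −0.47, against 0.32 over all listed genes and −0.59 over those that were lower. None was at least 2-fold lower, against 8.48% of the table. By limma 7 of 11 fell, against 60.0% of listed genes passing in either direction and 24.2% as lower. That count went to 4 without control replicate 2, acidosis replicate 2 or acidosis replicate 3, and to 11 without control replicate 1. The whole table moved as well, to 30.6%, 24.7%, 34.0% and 71.8% passing in either direction.

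STARD4 in acidosis had 21.82, 18.84 and 16.39, TM7SF2 had 4.21, 3.95 and 3.94, and LSS had 22.95, 20.43 and 18.61. All 3 genes were below their controls in every library. Their limma differences were −0.79 ± 0.17 for STARD4, −0.69 ± 0.16 for TM7SF2 and −0.71 ± 0.17 for LSS, with adjusted p = 0.00396, 0.00427 and 0.00686. SREBF1 had 38.77, 38.02 and 35.39, under the 55.36 of the lowest control. Its limma difference was −0.65 ± 0.16, adjusted p = 0.00661.

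INSIG1 in acidosis had 25.73, 26.38 and 25.79. These lay below every control, and the limma difference of −0.44 ± 0.16 had adjusted p = 0.0315. FDFT1 had 229.13, 226.35 and 224.26, just below the 244.32 of control replicate 1, with a limma difference of −0.42 ± 0.17 and adjusted p = 0.0471. The calls of INSIG1 and FDFT1 were lost on leaving out any 1 library except control replicate 1, at adjusted p from 0.0593 to 0.111 for INSIG1 and from 0.0996 to 0.154 for FDFT1. ACAT2 had 170.27, 130.60 and 135.91, below all controls, and limma gave −0.55 ± 0.18 with adjusted p = 0.0194. ACAT2 lost its call without control replicate 2, acidosis replicate 2 or acidosis replicate 3, at adjusted p from 0.0667 to 0.104.

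MSMO1 in acidosis had 79.98, 81.73 and 80.49, close under the 84.17 of control replicate 1. It did not pass, with a limma difference of −0.25 (95% interval −0.60 to 0.09) and adjusted p = 0.148. SREBF2 had 79.17, 66.69 and 59.91, CYP51A1 had 98.34, 82.40 and 77.52, and MVK had 49.18, 48.14 and 49.42. All 3 overlapped their controls, and their limma adjusted p values were 0.0545, 0.0765 and 0.106.

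Without control replicate 1, 15 of 16 sterol genes passed limma under lactic acidosis, 8 of 8 in lactosis and 11 of 11 in acidosis. Of all listed genes 95.0%, 83.9% and 71.8% then passed in either direction, and 39.6%, 39.8% and 38.1% as lower. By the deposited values 11 of 16 genes had lactic acidosis libraries all below the controls, against 32.0% of listed genes, while 90.2% did not overlap in either direction. In lactosis 5 of 8 lay below, against 31.9%, and EBP above, against 84.0% apart in either direction. In acidosis 8 of 11 lay below, against 25.3% below and 75.5% in either direction. After rescaling the groups overlapped for no listed sterol gene: 16, 7 and 11 lay below, against 40.8%, 40.3% and 38.8% of listed genes. In either direction the rescaled groups were apart for 99.2%, 98.9% and 99.4% of listed genes. By limma on rescaled values every listed sterol gene passed in each table, but so did 97.5%, 97.4% and 97.6% of all listed genes. As lower, 40.3%, 39.8% and 38.2% of all listed genes passed on that scale.

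**Figure D3:**
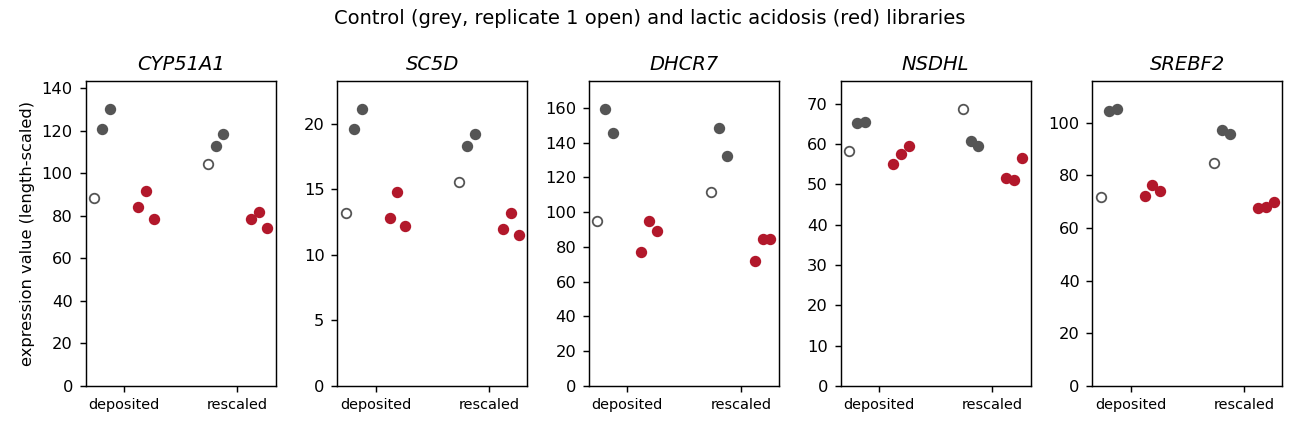
Expression values of the 5 genes whose lactic acidosis and control libraries overlapped as deposited, before and after dividing each library by its fitted divisor; grey is control with replicate 1 as an open circle, red is lactic acidosis. The open circle lies within or near the red points on the left of each panel and above them on the right.

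The treated groups can be set against each other without the controls, for genes listed in both tables. Lactic acidosis was lower than lactosis for 4 of the 6 sterol genes in both by limma, and 4.78% of the 2344 shared genes passed as lower, 20.4% in either direction. INSIG1 differed by −1.22 ± 0.08 (SE; limma adjusted p = 7.67e-06) and FDFT1 by −0.69 ± 0.08 (limma adjusted p = 0.000188). STARD4 differed by −0.43 ± 0.10 (limma adjusted p = 0.0112) and HSD17B7 by −0.34 ± 0.08 (limma adjusted p = 0.0156). GGPS1 and SREBF2 did not pass, at 0.08 (95% interval −0.09 to 0.25) and −0.08 (−0.27 to 0.12). The count was 4 after rescaling too, when 8.96% of shared genes passed as lower and 23.8% in either direction. Without lactic acidosis replicate 3 it was 2, since STARD4 and HSD17B7 were lost at limma adjusted p = 0.0554 and 0.0606, and 2.82% of shared genes passed as lower. HSD17B7 was also lost without lactic acidosis replicate 2 or lactosis replicate 1, at 0.0583 and 0.0601.

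Against acidosis, lactic acidosis was lower for 5 of the 10 shared sterol genes by limma, where 10.0% of 1304 shared genes passed as lower and 48.8% in either direction. INSIG1 differed by −1.35 ± 0.08 (limma adjusted p = 2.38e-06), MSMO1 by −0.88 ± 0.09 (limma adjusted p = 6.88e-05) and STARD4 by −0.68 ± 0.11 (limma adjusted p = 0.000950). FDFT1 differed by −0.53 ± 0.07 (limma adjusted p = 0.000237) and TM7SF2 by −0.40 ± 0.09 (limma adjusted p = 0.00551), or −0.21 with a pseudocount of 5. LSS did not differ detectably, at 0.08 (95% interval −0.11 to 0.28), nor did CYP51A1, at −0.02 (−0.25 to 0.21), or SREBF2, at 0.12 (−0.11 to 0.35). ACAT2 at −0.22 and MVK at −0.18 did not pass as deposited and passed after rescaling, at −0.32 and −0.28 (limma adjusted p = 0.00465 and 0.0103). On that scale 15.6% of shared genes passed as lower and 46.6% in either direction. MVK also passed without lactic acidosis replicate 2, and SREBF2 without acidosis replicate 1, at 0.23 (limma adjusted p = 0.0436 and 0.0275).

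Between lactosis and acidosis 0 of 5 shared sterol genes passed limma, where 23.9% of 1173 shared genes passed in either direction and 7.50% as lower. At an unadjusted limma p under 0.05 there were 2, FDFT1 at 0.15 ± 0.07 and STARD4 at −0.26 ± 0.11. The share of all shared genes at that threshold was not counted. The count went to 0 without acidosis replicate 2, lactosis replicate 1 or lactosis replicate 2, and with the replicate number as a block. Differences of INSIG1, SREBF1 and SREBF2 had 95% intervals of −0.30 to 0.02, −0.02 to 0.31 and −0.07 to 0.46. After rescaling STARD4 passed, at −0.28 with limma adjusted p = 0.0142, when 12.3% of shared genes passed as lower and 32.3% in either direction.

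**Figure D4:**
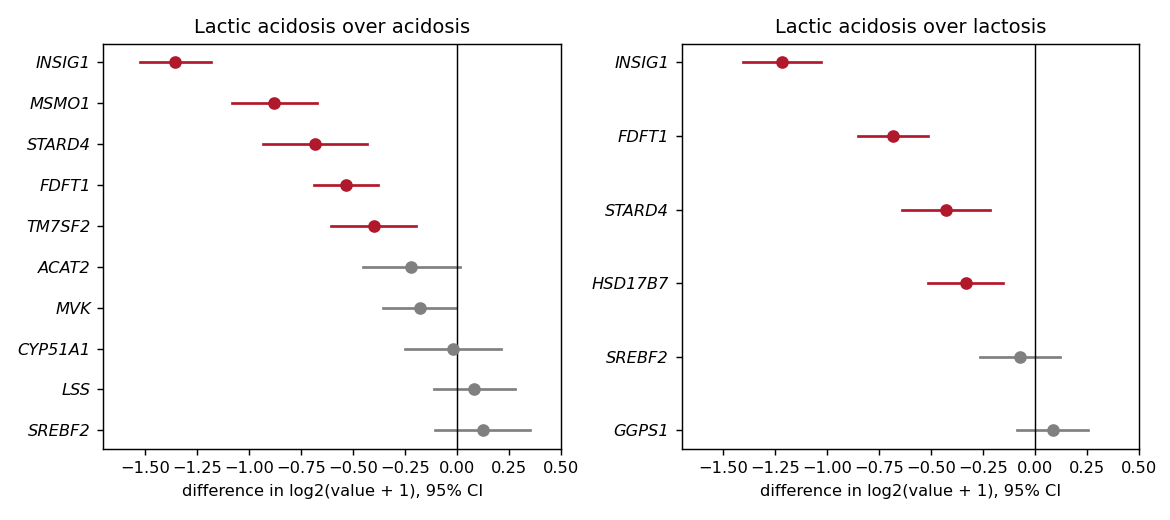
Limma difference on the log2(value + 1) scale, lactic acidosis over acidosis (left) and over lactosis (right), with 95% intervals, for the sterol genes listed in both tables; red marks an adjusted p under 0.05 and grey the others. INSIG1 lies farthest below 0 in both panels, at −1.35 and −1.22.

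Because lactate and acid were given alone and together, the change under both can be set beside the sum of the changes under each, for the 4 sterol genes in all 3 tables. The tables share their controls, so these sums are not independent of each other. In the authors' deposited table INSIG1 stood at −2.01 with both and the separate changes summed to −1.09, and FDFT1 stood at −1.07 beside −0.74. STARD4 stood at −1.71 beside −2.01 and SREBF2 at −0.43 beside −0.73, again from the authors' deposited table. Over the 1042 genes in all 3 tables the median difference from the sum was −0.24.

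The interaction term of limma over all 12 libraries tested this departure. Its median over the 1042 genes was −0.16, and it moved to −0.0033 without control replicate 1 and to −0.27 without control replicate 3. INSIG1 passed, at −0.78 ± 0.16 (SE) with limma adjusted p = 0.00267. Over all other settings tried it lay between −0.85 and −0.58, with limma adjusted p from 0.00027 to 0.0104. The other 3 did not pass: FDFT1 at −0.27 (95% interval −0.64 to 0.11), SREBF2 at 0.36 (−0.09 to 0.81) and STARD4 at 0.36 (−0.05 to 0.77). Of all 1042 genes 35.9% passed in either direction and 15.9% as lower. After rescaling, FDFT1 at −0.33 and SREBF2 at 0.29 passed too, as did 70.3% of all genes, 42.6% as lower. Without control replicate 1 FDFT1 was −0.11 and did not pass. SREBF2 passed in that setting, at 0.54 (limma adjusted p = 0.0101), as did 48.3% of all genes. Without control replicate 3 STARD4 passed at 0.48 (limma adjusted p = 0.0347), as did 54.3%.

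**Figure D5:**
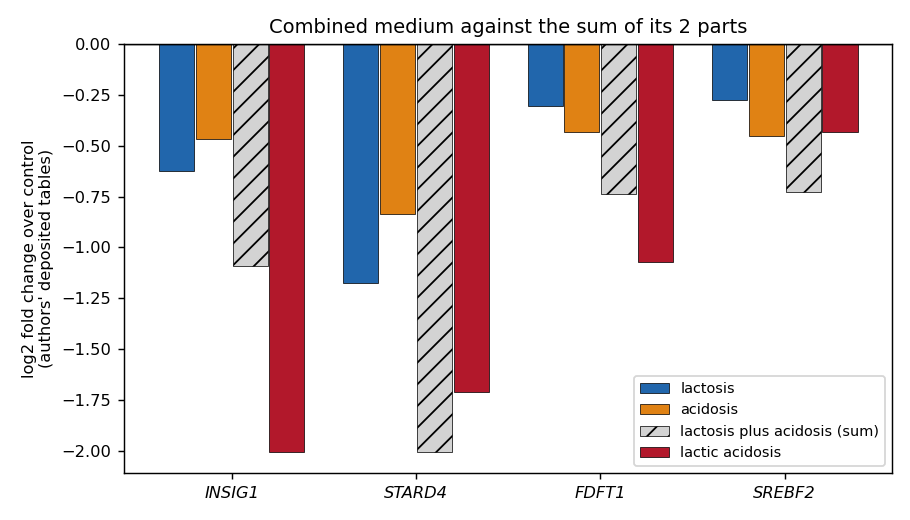
Log2 fold change over control from the authors' deposited tables for the 4 sterol genes in all 3 tables: bars for lactosis, acidosis, the sum of these 2 (hatched) and lactic acidosis. The lactic acidosis bar reaches below the hatched one for INSIG1, −2.01 against −1.09, and FDFT1, −1.07 against −0.74, and stops short of it for STARD4 and SREBF2.

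Ratios of 2 genes in the same library do not depend on how that library was scaled. INSIG1 over SREBF2 was 0.439, 0.345 and 0.375 in the controls and 0.124, 0.136 and 0.126 under lactic acidosis. It was 0.293, 0.343 and 0.269 in lactosis and 0.325, 0.396 and 0.430 in acidosis. Lactic acidosis thus stood apart from all 9 other libraries. The lactosis libraries lay below the controls, but the highest of them, 0.343, nearly touched the lowest control, 0.345. Those of acidosis overlapped the controls. FDFT1 over SREBF2 was 3.41, 3.17 and 3.28 in the controls and 2.13, 2.11 and 2.06 under lactic acidosis, again without overlap.

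Other genes of sterol handling were read from 4 lists, whose counts are to be read against the share of all listed genes that passed limma. That share was 30.8% lower and 55.3% higher under lactic acidosis, 31.2% and 46.5% in lactosis, and 24.2% and 35.9% in acidosis. Of 11 further SREBP targets, most of which act in fatty acid and cofactor metabolism, 6 were listed under lactic acidosis. All 6 were lower, and 5 fell by limma. All 3 listed in lactosis fell, and 2 of 4 listed in acidosis. SCD, the stearoyl-CoA desaturase, stood at 616 ± 149 in control cells, 249 ± 23.6 under lactic acidosis, 409 ± 63.5 in lactosis and 281 ± 59.6 in acidosis (SD, n = 3). ACSS2, which makes acetyl-CoA from acetate, stood at 34.1 ± 7.73, 19.9 ± 0.39, 21.5 ± 1.28 and 24.6 ± 2.17 in the same order. MMAB, which acts on vitamin B12 and overlaps MVK, stood at 40.2 ± 1.29, 23.1 ± 1.29, 27.2 ± 0.60 and 28.7 ± 0.78.

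Of 21 genes of sterol uptake, transport, storage and efflux, 9 were listed under lactic acidosis, and limma called 5 lower and 2 higher. In lactosis limma called 5 lower and 1 higher of 7 listed, and in acidosis both listed genes were lower. NPC1, which exports cholesterol from lysosomes, stood at 29.03 ± 4.07 in control cells and 18.8 ± 1.23, 18.2 ± 2.12 and 15.2 ± 2.71 under lactic acidosis, lactosis and acidosis (SD, n = 3). NR1H3, which encodes the sterol-sensing receptor LXR alpha, stood at 12.1 ± 0.65 in control cells, 6.86 ± 1.29 under lactic acidosis and 6.64 ± 0.61 in lactosis. GRAMD1C, a sterol transfer protein, stood at 9.59 ± 2.59, 5.06 ± 0.14 and 4.78 ± 1.05 in those groups.

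Of 14 genes that use isoprenoids for other ends than sterol, 6 were listed under lactic acidosis, and limma called 4 higher and 1 lower. Of the 6 listed in lactosis 5 rose and 1 fell, and the 1 listed in acidosis did not pass. The 3 enzymes that trim and methylate prenylated proteins were among those that rose. ICMT stood at 32.4 ± 12.8 in control cells, 70.5 ± 5.97 under lactic acidosis and 63.6 ± 5.54 in lactosis. RCE1 stood at 31.4 ± 3.35, 49.3 ± 1.97 and 50.1 ± 2.85, and ZMPSTE24 at 38.1 ± 6.32, 57.4 ± 4.26 and 56.9 ± 4.79. Of 10 genes of sterol-regulated protein degradation, UBE2G2, a ubiquitin-conjugating enzyme, was the 1 listed under lactic acidosis and rose from 36.0 ± 7.30 to 62.0 ± 2.67 (SD, n = 3). It rose in lactosis as well, to 59.2 ± 6.66, and none of the 3 listed in acidosis passed.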

How the data were processed

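The authors deposited 3 tables, each of 1 treated group against the shared controls. STAR and hg38 are named in the submitters' processing notes, while the counting tool and its version are not given in the sources used here. Library values are a signal deposited by the authors, relative to gene length and to each library's scale, and neither TPM nor FPKM is named. Group means are a deposited signal of counts over size factors. Fold changes are the deposited posterior ratio of control over treated, inverted here and put on the log2 scale. A plain ratio of control over treated is deposited as well. The other deposited columns are posterior probabilities, and all rows have less than 0.05 for equal expression. Control values were identical across tables. Library totals are unknown, so no counting interval was set. The labels do not state strand for the library kit, so reads of overlapping genes cannot be separated.

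Genes were matched by symbol. Limma 3.58.1 in R 4.3.3 ran on log2(value + 1) over all listed genes, or over genes listed in both or all 3 tables, with Benjamini-Hochberg adjustment and a threshold of 0.05. The script was tested on simulated data. Rescaling divided each library by a factor fitted so that library means give the authors' group means. Replicate numbers did not pair the samples. Every member was accounted for: libraries are given for genes listed in 2 or more tables or at least 2-fold changed, and for EBP, chosen after its values were seen, since it alone was higher. Related lists name up to 3 genes each by the smallest probability of equal expression under lactic acidosis. Members and lists were chosen with earlier results of these data known. Positions and overlaps are from GENCODE on GRCh38, and shared sequence is the percent of 75-base windows, every 10 bases, that occur in transcripts of another gene. Alternatives were pseudocounts of 0.1 and 5, a mean of at least 1, rescaling, the replicate number as a block, each library left out, and stricter listing. Some genes of the pathway are withheld and are not reported here. Python 3.11.15, pandas 2.3.3 and numpy 2.4.6 were used.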

Additional observations from a re-analysis of the deposited data

Results flagged for a closer look

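The effect of acid on INSIG1 differed with and without lactate. The interaction term of limma was −0.78 on the log2(value + 1) scale, with adjusted p = 0.00267. INSIG1 was lower than in control in every library of all 3 treated groups. Its change under lactic acidosis went beyond the sum of its changes under lactosis and acidosis. The pH of the 2 acid media was not the same, 6.7 with lactate and 6.5 without, so the effect of lactate cannot be told apart from that of the pH step.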

How the results depend on the processing

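The direction against control held for every listed sterol gene under every alternative run. These runs reuse the libraries by which the genes were listed, so a kept direction adds little to the listing. The same share over all listed genes was not counted. After rescaling, sterol genes past limma numbered 16 under lactic acidosis (13 as deposited), 8 in lactosis (6) and 11 in acidosis (7). Of all listed genes 97.5%, 97.4% and 97.6% then passed in either direction, against 86.1%, 77.7% and 60.0% as deposited. Sterol genes numbered 1 between lactosis and acidosis (0) and 3 for the interaction (1). There 32.3% and 70.3% of shared genes passed, against 23.9% and 35.9% as deposited. Leaving out 1 library gave from 9 to 15 under lactic acidosis, from 4 to 8 in lactosis and from 4 to 11 in acidosis. The share of all listed genes that passed also ranged, from 61.3% to 95.0%, from 46.1% to 83.9% and from 24.7% to 72.7%. Leaving out 1 library also gave from 2 to 4 between lactic acidosis and lactosis, and from 5 to 6 between lactic acidosis and acidosis. It gave 0 in every case between lactosis and acidosis, and 1 to 2 for the interaction. The share of all shared genes that passed in either direction ranged there too. It went from 11.05% to 28.3% for lactic acidosis against lactosis and from 37.2% to 58.2% for lactic acidosis against acidosis. For lactosis against acidosis it went from 11.2% to 28.6%, and for the interaction from 23.03% to 54.3%. CYP51A1 between lactic acidosis and acidosis turned from −0.021 to 0.078 without acidosis replicate 1 and to 0.033 without lactic acidosis replicate 3, and was −0.092 without acidosis replicate 3. LSS in that comparison turned from 0.08 to −0.013 after rescaling. None of these values passed. A cutoff of 2-fold on the authors' deposited table left 6, 1 and 0 listed sterol genes, and a probability under 0.01 left 15, 6 and 10. Of all listed genes 15.7%, 12.8% and 8.48% were at least 2-fold lower, and their share under 0.01 was not counted. Same-numbered libraries did not all deviate together (correlations from −0.260 to 0.155 over listed genes). With the replicate block the counts were 14, 5 and 5 against control, where 86.0%, 69.3% and 38.1% of all listed genes passed in either direction. They were 4, 5 and 0 between treated groups, where 14.3%, 45.2% and 20.5% of shared genes passed. For the interaction the count was 1, where 29.7% passed. Under that block EBP, and in acidosis FDFT1 and INSIG1, were over the threshold and SC5D under it. Where a cause is not given, the cause was not tested. Genes that were not listed, and the unknown depth, limit what can be said: nothing here shows that an unlisted gene did not change.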
